A study of Mus musculus with 10 samples.

Results

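The miRNAs described here are a set of 5 mature strands known as markers of blood or of endoderm organs: mmu-miR-142a-5p and mmu-miR-142a-3p, the arms of miR-142a, and mmu-miR-192-5p, mmu-miR-194-5p and mmu-miR-375-3p. They were taken by name from a table of 1907 mature miRNA entries counted in mouse E14 embryonic stem cells, and all 5 passed the filter on low counts that left 481 entries for testing. The cells are a 129/Ola line from the blastocyst, grown on gelatine in 15% serum and 100 U/mL LIF, with no treatment. They form 5 groups of 2 libraries each: Dgcr8_KO (Dgcr8 knockout), Drosha_KO (Drosha knockout), Dicer_KO (Dicer knockout), Ago12_KO (double knockout of Ago1 and Ago2) and WT (wild type). The labels do not say how the lines were made or whether the libraries of a group are separate cultures, so p-values measure only how far these libraries spread, which could be technical. The sample descriptions carry a code shared by both Dgcr8_KO libraries and another shared by both Ago12_KO libraries, so what these codes stand for and the genotype cannot be told apart. The 2 WT libraries carry different codes, as do the 2 Dicer_KO libraries, and the labels do not explain them.

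A canonical miRNA is made in steps. Drosha and its partner Dgcr8, together the Microprocessor, cut a hairpin out of a longer transcript in the nucleus, Dicer cuts the hairpin into a short duplex, and an Argonaute protein keeps 1 strand as the guide. The guide finds its targets mainly through the seed, bases 2 to 8 from the 5′ end. miR-142 is abundant in nearly all blood lineages, and in mouse embryonic stem cells it has been reported to be present in some cells and nearly absent from others. miR-192 and miR-194 are abundant in liver, gut and kidney epithelium, and miR-375 in pancreatic islets, where in mice it restrains insulin secretion and maintains alpha and beta cells.

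The mature sequences show which of these miRNAs could act on shared targets. They are given 5′ to 3′ from RefSeq (GRCm38.p6), with the seed in capitals; 4 of the 5 members had an entry, and miR-375-3p is named only. The last line is miR-215-5p, shown because it carries the seed of miR-192-5p.
miR-142a-5p: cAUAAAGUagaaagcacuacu
miR-142a-3p: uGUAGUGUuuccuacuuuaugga
miR-192-5p: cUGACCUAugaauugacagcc
miR-194-5p: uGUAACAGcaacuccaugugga
miR-215-5p: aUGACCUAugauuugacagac
The 4 members shown have 4 different seeds. The seed of miR-192-5p was found in 1 other RefSeq entry, miR-215-5p, which matches it at 18 of 21 positions, and no other RefSeq entry carried the seed of either arm of miR-142a or of miR-194-5p.

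The hairpins lie at these places in GRCm38. Mir142 lies on chromosome 11 at 87756864 to 87756927 on the plus strand, in an intron of the long non-coding RNA Mir142hg in GENCODE M21. Its hairpin is printed with the 5p arm and then the 3p arm in capitals.
Mir142 hairpin: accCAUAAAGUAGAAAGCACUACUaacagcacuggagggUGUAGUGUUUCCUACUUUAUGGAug
On the other strand of the same place lies Mir142b (87756841 to 87756955), whose mature entry miR-142b had no count in any library. Mir194-2 (chromosome 19, 6264643 to 6264728, plus strand) and Mir192 (6264844 to 6264932, plus strand) are 115 bases apart, in no other annotated gene. Mir194-1 (chromosome 1, 185313319 to 185313385, plus strand) and Mir215 (185313581 to 185313692) are 195 bases apart, opposite an intron of Iars2, and on their own strand in an intron and at an exon of 2010103J01Rik. Mir375 lies on chromosome 1 at 74900658 to 74900721 on the minus strand, in no other annotated gene, between Cryba2 and Cfap65.

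miR-194-5p can come from either miR-194 hairpin, since both give the same 22 bases. Their 3p arms differ at 4 positions, in capitals here.
miR-194-1-3p: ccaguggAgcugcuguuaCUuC
miR-194-2-3p: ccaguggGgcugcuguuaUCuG
miR-194-1-3p had no count in any library. miR-194-2-3p had 4 and 7 counts in Ago12_KO and 4 and 1 in WT, and none in the other libraries. The few 3p counts that told the hairpins apart thus came from Mir194-2, the hairpin beside Mir192. miR-215-5p, from the hairpin beside Mir194-1, had 4 and 0 counts in Ago12_KO and 28 and 15 in WT, and none elsewhere.

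Levels are given as CPM, the count scaled to a library total of 1000000, so they are shares of the counted miRNA reads and not amounts per cell. Library totals ran from 37476 to 2357868 counts, with means 6.16, 53.9, 52.0 and 7.43 times below WT in Dgcr8_KO, Drosha_KO, Dicer_KO and Ago12_KO. A count of 0 allows up to 3 counts, which is 37.6 CPM over the Drosha_KO libraries, 36.3 CPM over Dicer_KO and 0.697 CPM over WT. Fewer cells of a type and less of a miRNA per cell cannot be told apart in these bulk libraries. The stem cell label was checked in WT on the miR-290 to miR-295 cluster, which is abundant in mouse embryonic stem cells. All 12 listed strands had counts in every library and took 18.4 to 19.7% of WT counts. They took 15.9 to 16.3% of Dgcr8_KO counts, 20.4 to 21.0% of Drosha_KO counts, 3.19 to 3.57% of Dicer_KO counts and 11.5 to 12.4% of Ago12_KO counts. These strands are themselves miRNAs, which the knocked-out genes serve to make or hold, so their shares in the mutants cannot check the cell type. Why they had counts there was not tested. In Dicer_KO, 47.1 to 48.6% of counts were in 8 entries, termed rRNA-like here, against 0.361 to 0.466% in WT. They overlap rRNA or tRNA or dominate the Dicer_KO libraries (of 11 such names listed, 8 are in the table). Dominance there was a ground for listing, so the high Dicer_KO share is partly set by the choice. Whether each entry counts rRNA or tRNA fragments was not tested. Calls lost with these entries out of the totals are given beside them.

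The 5 members together took 0.441% ± 0.00859 of the Dgcr8_KO counts, 0.263% ± 0.126 of the Drosha_KO counts, 0.0552% ± 0.0252 of the Dicer_KO counts, 1.57% ± 0.321 of the Ago12_KO counts and 0.208% ± 0.0313 of the WT counts (SD, n = 2 each). In Dgcr8_KO and Drosha_KO most of these counts were miR-142a-5p, and in Dicer_KO, Ago12_KO and WT the leading member was miR-192-5p. edgeR's quasi-likelihood test across all 481 entries, with Benjamini-Hochberg adjustment and a call at an adjusted p under 0.05, called 3 members higher and 1 lower in Dgcr8_KO than in WT, where 73.4% of all entries were called (32.4% higher and 41% lower). In Drosha_KO it called 2 higher and 1 lower, where 57.8% of entries were called (26.2% higher and 31.6% lower). In Dicer_KO it called 3 lower, where 55.9% of entries were called, 13.3% higher and 42.6% lower. In Ago12_KO it called 4 higher and 1 lower, where 54.5% of entries were called, 28.7% higher and 25.8% lower. The share of members called was 80% in Dgcr8_KO, 60% in Drosha_KO and 60% in Dicer_KO, near these backgrounds for 5 miRNAs, and in Ago12_KO all 5 were called. The calls in Dgcr8_KO, Drosha_KO and Ago12_KO include miR-375-3p as higher. Its WT levels were under the filter's 38.5 CPM, so it was tested only through mutant libraries and its calls are no support for a rise of the set. The 4 comparisons share the WT libraries.

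**Figure D1:**
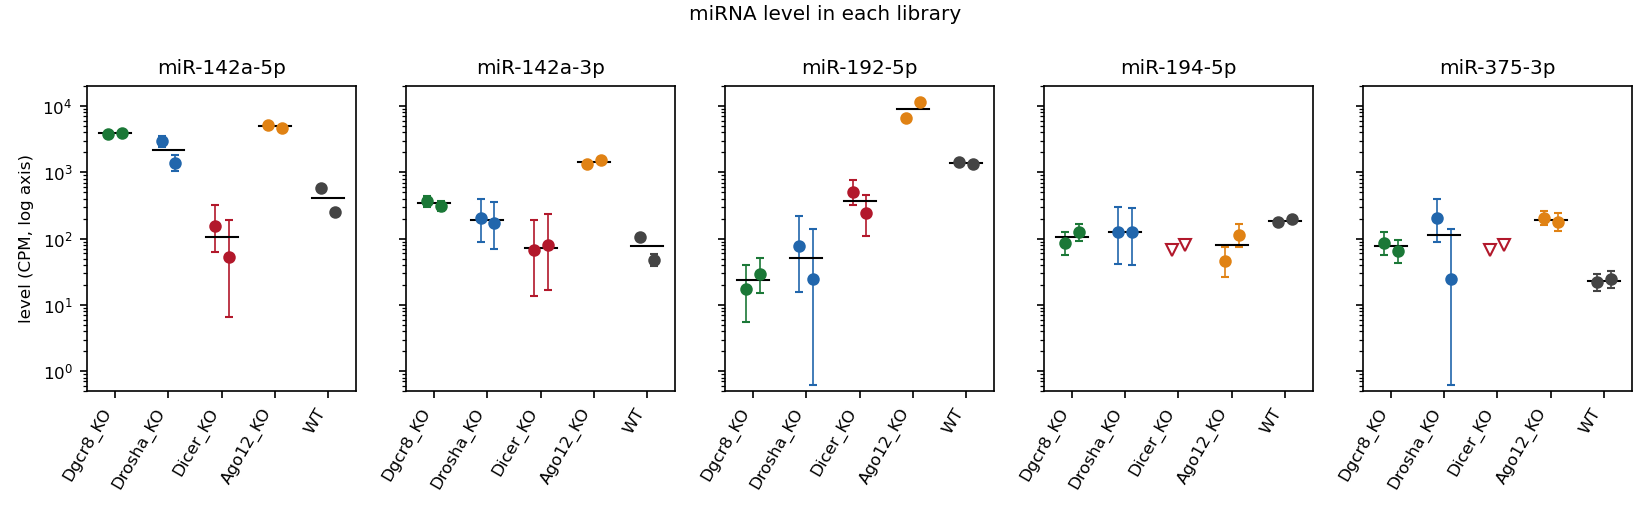
Level of each miRNA in every library, in CPM on a log axis, with 95% exact Poisson intervals that cover counting error only. Points are libraries (replicate 1 left, replicate 2 right), black lines are group means, and open triangles mark libraries with 0 counts at the level of 3 counts. miR-192-5p spans the widest range, from 17.3 CPM in a Dgcr8_KO library to 11451 CPM in an Ago12_KO library.

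The 5p arm of miR-142a is its more abundant strand in WT. miR-142a-5p had 3796 and 3940 CPM in Dgcr8_KO, 2911 and 1389 CPM in Drosha_KO, 155 and 53.4 CPM in Dicer_KO, 5250 and 4647 CPM in Ago12_KO, and 579 and 250.02 CPM in WT. All libraries of Dgcr8_KO, Drosha_KO and Ago12_KO were above both WT libraries, and both Dicer_KO libraries were below them. The share of all entries that lie apart from WT in this way was not counted. Such positions, here and below, therefore only describe the libraries. It rose in Dgcr8_KO by 3.22 on the log2 scale (SE 0.49, edgeR adjusted p = 0.000152), in Drosha_KO by 2.37 (SE 0.48, edgeR adjusted p = 0.00141) and in Ago12_KO by 3.58 (SE 0.49, edgeR adjusted p = 0.000147). In Dicer_KO it fell (log2 fold change -1.95, SE 0.63, edgeR adjusted p = 0.0205), on 7 and 2 counts. Without any scaling the rises were no longer calls, at 0.55 in Dgcr8_KO (edgeR adjusted p = 0.381) and 0.65 in Ago12_KO (edgeR adjusted p = 0.329). Unscaled counts keep the differences in library total, here means 6.16 and 7.43 times below WT. Relative to the median of all entries, which was -0.41, -0.87, -2.78 and -0.016 in the 4 comparisons, miR-142a-5p stood at 3.63 in Dgcr8_KO, at 3.24 in Drosha_KO, at 0.83 in Dicer_KO and at 3.59 in Ago12_KO.

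The 3p arm went the same way in Dgcr8_KO and Ago12_KO. miR-142a-3p had 366 and 313 CPM in Dgcr8_KO, 202 and 174 CPM in Drosha_KO, 66.3 and 80.1 CPM in Dicer_KO, 1320 and 1530.03 CPM in Ago12_KO, and 105 and 47.3 CPM in WT. The Dicer_KO libraries, with 3 counts each, lay between the WT libraries. It rose in Dgcr8_KO by 2.14 on the log2 scale (SE 0.37, edgeR adjusted p = 0.000401) and in Ago12_KO by 4.21 (SE 0.40, edgeR adjusted p = 1.18e-05). In Drosha_KO its fold change of 1.29 (SE 0.52) missed the threshold at edgeR adjusted p = 0.0523, on 8 and 7 counts, and in Dicer_KO it was at -0.074 (SE 0.66, edgeR adjusted p = 0.924). Without scaling its Dgcr8_KO value was -0.54 (edgeR adjusted p = 0.292). The Ago12_KO result also shows in the counts before any scaling: 461 and 351 in Ago12_KO against 248 and 92 in WT, with library totals that were 7.43 times lower, and edgeR without scaling still gave 1.26 (adjusted p = 0.0277).

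The WT libraries differed from each other in miR-142a more than in the other members, and the part of their different codes was not tested. WT replicate 1 was 2.32 times replicate 2 for the 5p arm and 2.22 times for the 3p arm, against 1.06 times for miR-192-5p and 1.10 times for miR-194-5p and for miR-375-3p. The 5p intervals of the WT libraries, 549 to 611 and 228 to 273 CPM (95% exact Poisson, counting error only), did not overlap. Without WT replicate 1 the Dicer_KO call of miR-142a-5p was lost (-1.22, edgeR adjusted p = 0.138), as it was without Dicer_KO replicate 2 (-1.42, edgeR adjusted p = 0.157) or with the rRNA-like entries out of the totals (-1.01, edgeR adjusted p = 0.230), while miR-142a-3p in Drosha_KO became a call without WT replicate 1 (1.98, edgeR adjusted p = 0.00938), with those entries out of the totals (1.35, edgeR adjusted p = 0.0452) or with the replicate number as a block (1.34, edgeR adjusted p = 0.0456). The Drosha_KO direction depends on the scaling: DESeq2 size factors in edgeR put miR-142a-5p at -0.083 (adjusted p = 0.874) and miR-142a-3p at -1.12 (adjusted p = 0.0646). Counts left unscaled put them at -3.44 and -4.48. Those 2 values include the lower Drosha_KO library totals, and the median of all entries was then -6.40, so they do not bear on the direction of the share.

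Each hairpin cut yields both arms of miR-142a, so their ratio within a library does not depend on the library total. The 3p arm made up 8.80% and 7.36% of miR-142a counts in the Dgcr8_KO libraries, 6.5% and 11.1% in those of Drosha_KO, 30% and 60% in those of Dicer_KO, 20.1% and 24.8% in those of Ago12_KO, and 15.4% and 15.9% in those of WT. The Dgcr8_KO and Drosha_KO shares were below both WT shares, and the Dicer_KO and Ago12_KO shares were above them. limma on log2 of the 5p over the 3p count, fitted over the 84 hairpins whose arms each averaged 20 or more counts, gave differences from WT of 1.08 in Dgcr8_KO (SE 0.59, adjusted p = 0.474, where 1.19% of hairpins were called), 0.91 in Drosha_KO (SE 0.59, adjusted p = 0.321, with 13.1% called) and -0.63 in Ago12_KO (SE 0.59, adjusted p = 0.414, with 41.7% called). In Dicer_KO the difference was -2.12 (SE 0.59, limma adjusted p = 0.0233, with 48.8% called), on 10 and 5 counts of both arms together. The Dicer_KO shares have 95% Clopper-Pearson intervals of 6.67 to 65.2% and 14.7 to 94.7%, both of which include the WT shares, and the call was lost without Dicer_KO replicate 2 (-1.33, limma adjusted p = 0.0705), WT replicate 1 (-2.09, limma adjusted p = 0.109) or WT replicate 2 (-2.15, limma adjusted p = 0.0998).

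**Figure D2:**
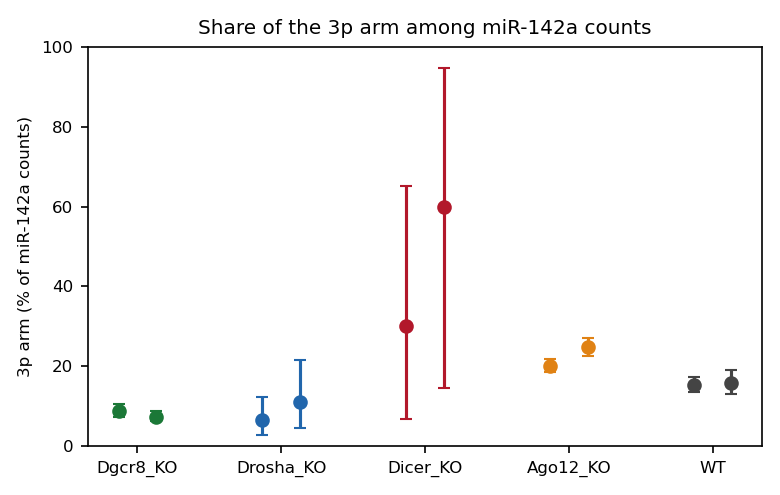
Share of the 3p arm among all miR-142a counts in each library, in percent, with 95% Clopper-Pearson intervals that cover counting error only. The Dgcr8_KO libraries sit at 8.80% and 7.36%, the Ago12_KO libraries at 20.1% and 24.8% and the WT libraries at 15.4% and 15.9%, while the wide Dicer_KO intervals rest on 10 and 5 counts.

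miR-192-5p, of which liver and gut epithelium hold much, was the member with the widest range. It had 17.3 and 29.4 CPM in Dgcr8_KO, 75.9 and 24.8 CPM in Drosha_KO, 509 and 240.2 CPM in Dicer_KO, 6564 and 11451 CPM in Ago12_KO, and 1412 and 1338 CPM in WT. The libraries of Dgcr8_KO, Drosha_KO and Dicer_KO were below both WT libraries and those of Ago12_KO above, a position not counted over all entries. It fell in Dgcr8_KO (log2 fold change -5.83, SE 0.52, edgeR adjusted p = 4.35e-06), on 5 and 12 counts, and in Drosha_KO (-4.77, SE 0.61, edgeR adjusted p = 5.10e-05), on 3 and 1 counts. These were calls under all 20 alternatives tried, with ranges of -8.43 to -5.54 in Dgcr8_KO and -10.45 to -4.18 in Drosha_KO.

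In Dicer_KO miR-192-5p fell (log2 fold change -1.86, SE 0.45, edgeR adjusted p = 0.00454), which is 0.92 above the median of all entries. With the rRNA-like entries out of the totals the Dicer_KO call was lost (-0.92, edgeR adjusted p = 0.116). In Ago12_KO it rose by 2.71 (SE 0.41, edgeR adjusted p = 0.000244) and held rank 24 by mean CPM among the 710 entries with a count, against rank 70 of 1055 in WT. Counts left unscaled put it at -0.27 in Ago12_KO (edgeR adjusted p = 0.622), with 2293 and 2627 counts against 3330 and 2600 in WT. Its opposite arm miR-192-3p had 2 and 0 counts in Ago12_KO, 1 count in each WT library and none elsewhere.

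miR-194-5p, which can come from Mir194-2 beside Mir192 or from Mir194-1, did not follow miR-192-5p. It had 86.3 and 125 CPM in Dgcr8_KO, 127 and 124 CPM in Drosha_KO, no count in either Dicer_KO library, 45.8 and 113 CPM in Ago12_KO, and 177 and 195 CPM in WT. All mutant libraries were below both WT libraries. In Dgcr8_KO (-0.80, SE 0.41, edgeR adjusted p = 0.101) and Drosha_KO (-0.57, SE 0.58, edgeR adjusted p = 0.415) the difference missed the threshold, and in Ago12_KO it fell (-1.28, SE 0.44, edgeR adjusted p = 0.0294). In Dicer_KO it fell and was at least 5.13-fold lower than in WT, a bound from 3 counts over both Dicer_KO libraries (edgeR adjusted p = 0.00284). That bound would be smaller with the rRNA-like entries out of the totals.

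The calls of miR-194-5p rest on few counts. Its Ago12_KO call, on 16 and 26 counts, was lost without Ago12_KO replicate 1 (-0.71, edgeR adjusted p = 0.167), WT replicate 1 (-1.33, edgeR adjusted p = 0.0969) or WT replicate 2 (-1.20, edgeR adjusted p = 0.134) and with DESeq2 on column totals (-1.26, adjusted p = 0.0670). In Dgcr8_KO it became a call when only these groups were fitted (-0.80, edgeR adjusted p = 0.0118), without Ago12_KO replicate 1 (edgeR adjusted p = 0.0293) or replicate 2 (edgeR adjusted p = 0.0295), and under TMM factors, DESeq2 size factors, DESeq2 or no scaling, with a range of -3.39 to -0.58.

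The ratio of miR-192-5p to miR-194-5p is taken within each library and is free of the library total. miR-194-5p can come from Mir194-1 as well as from Mir194-2, so the ratio does not compare only the neighbouring hairpins. The part of Mir194-1 in each group was not tested. It was 0.200 and 0.235 for the Dgcr8_KO libraries, 0.600 and 0.200 for Drosha_KO, 143 and 101 for Ago12_KO, and 7.97 and 6.86 for WT. Dicer_KO had 23 and 9 counts of miR-192-5p and none of miR-194-5p, so it has no ratio. On the log2 scale the ratio averaged -2.20 ± 0.17 in Dgcr8_KO, -1.53 ± 1.12 in Drosha_KO, 6.91 ± 0.36 in Ago12_KO and 2.89 ± 0.15 in WT (SD, n = 2 each), and the differences from WT were -5.09 for Dgcr8_KO, -4.42 for Drosha_KO and 4.02 for Ago12_KO. Neither Dgcr8_KO, Drosha_KO nor Ago12_KO overlapped WT, while Dgcr8_KO and Drosha_KO overlapped each other, and an exact two-sided permutation test over 2 against 2 libraries gave p = 0.333 in each of the 3 comparisons, the smallest p it allows (0.333 after Benjamini-Hochberg adjustment over the 3).

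**Figure D3:**
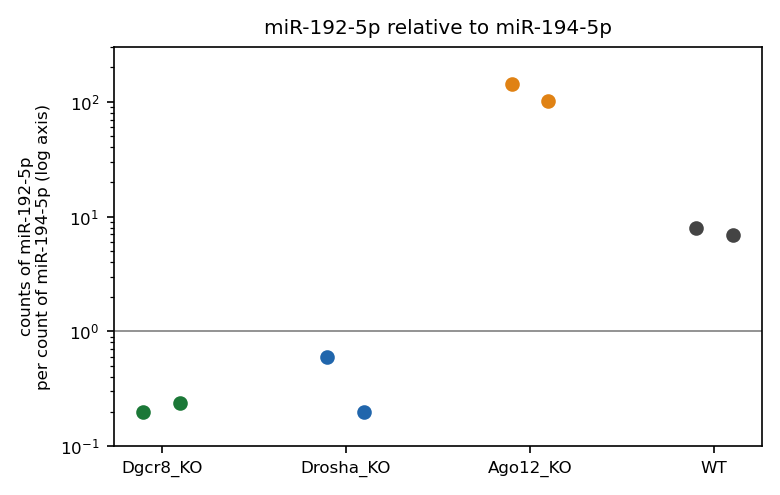
Counts of miR-192-5p per count of miR-194-5p in each library, on a log axis, with a grey line at 1 (replicate 1 left, replicate 2 right). The ratio is 143 and 101 in Ago12_KO, 7.97 and 6.86 in WT and at most 0.600 in Dgcr8_KO and Drosha_KO. Dicer_KO is not drawn because it had no miR-194-5p count. miR-194-5p can come from Mir194-1 as well as from Mir194-2, the neighbour of Mir192.

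miR-375-3p, the islet miRNA, was the least abundant member in WT. It had 86.3 and 66.1 CPM in Dgcr8_KO, 202 and 24.8 CPM in Drosha_KO, no count in Dicer_KO, 206 and 179 CPM in Ago12_KO, and 22.1 and 24.2 CPM in WT. The Dgcr8_KO and Ago12_KO libraries were all above WT, and Drosha_KO replicate 2, with 1 count, was at 24.8 CPM, just above WT replicate 2. It rose in Ago12_KO by 3.05 on the log2 scale (SE 0.47, edgeR adjusted p = 0.000395), in Dgcr8_KO by 1.70 (SE 0.49, edgeR adjusted p = 0.0100) and in Drosha_KO by 2.28 (SE 0.75, edgeR adjusted p = 0.0239). Its WT levels were under the filter's 38.5 CPM. It thus entered the test only through libraries of these mutants, where it was higher.

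The Drosha_KO value of miR-375-3p rested on 1 library. Without Drosha_KO replicate 1 it was 0.10 (edgeR adjusted p = 0.960), the call was also lost without WT replicate 1 (edgeR adjusted p = 0.0629) or WT replicate 2 (edgeR adjusted p = 0.0505), and DESeq2 size factors put it at -0.12. TMM factors also ended that call (1.65, edgeR adjusted p = 0.0657), as did fitting only these groups (2.28, edgeR adjusted p = 0.0695). In Dgcr8_KO DESeq2 size factors ended the call in edgeR (0.79, adjusted p = 0.185) and in DESeq2 (0.80, adjusted p = 0.204), and it was no longer called without Dgcr8_KO replicate 1 (1.51, edgeR adjusted p = 0.0710), WT replicate 1 (1.63, edgeR adjusted p = 0.0690) or WT replicate 2 (1.77, edgeR adjusted p = 0.0542). Without scaling it was -0.93 in Dgcr8_KO (edgeR adjusted p = 0.182) and 0.19 in Ago12_KO (edgeR adjusted p = 0.775). In Dicer_KO a fall from WT was not detectable at this depth, since 3 counts over both libraries are 36.3 CPM, above the WT mean of 23.1 ± 1.5 CPM (SD, n = 2). edgeR gave adjusted p = 0.162, and DESeq2 size factors in edgeR gave 0.0406. Its opposite arm, miR-375-5p, had no count in any library.

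**Figure D4:**
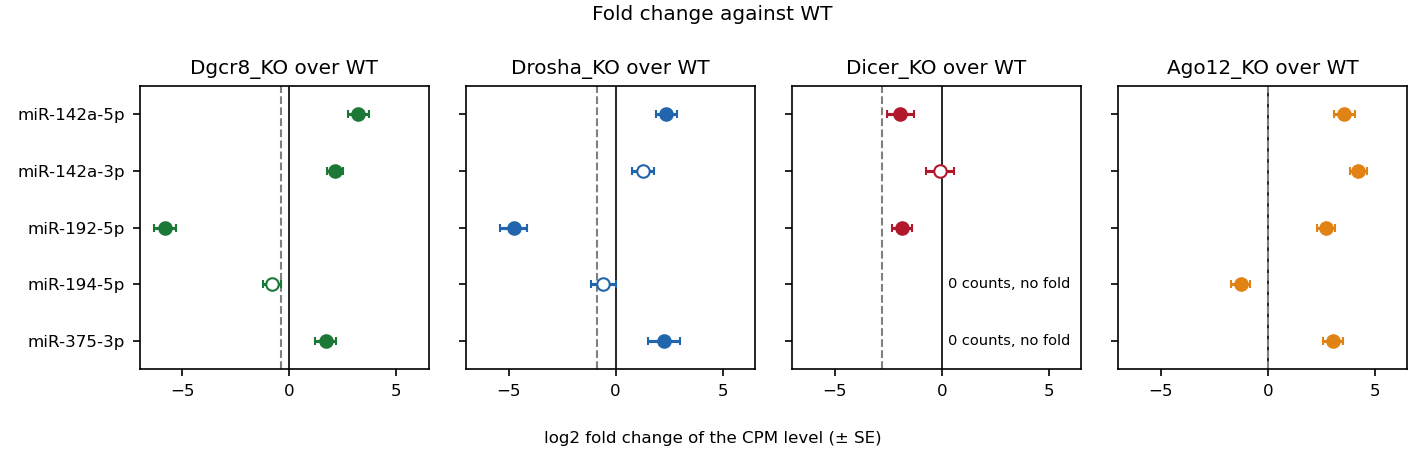
Log2 fold change of each miRNA in each mutant over WT, with its standard error from edgeR. Filled points have an adjusted p under 0.05, the dashed line is the median of all 481 entries, and miRNAs with 0 counts in the mutant have no fold change. miR-192-5p stands at -5.83 in Dgcr8_KO and 2.71 in Ago12_KO, and miR-142a-5p at 3.22 in Dgcr8_KO and 3.58 in Ago12_KO.

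The mean levels order the groups differently for each member. For both arms of miR-142a the order of the mutants was Ago12_KO, Dgcr8_KO, Drosha_KO and Dicer_KO, with WT between Drosha_KO and Dicer_KO. Neighbours in that order did not overlap for the 5p arm, but for the 3p arm WT and Dicer_KO did. For miR-192-5p the order was Ago12_KO, Dicer_KO, Drosha_KO and Dgcr8_KO, with WT next below Ago12_KO, and the libraries of Drosha_KO and Dgcr8_KO overlapped. For miR-194-5p WT came highest and Dicer_KO lowest, and Dgcr8_KO, with 86.3 and 125 CPM, overlapped both Drosha_KO and Ago12_KO. For miR-375-3p the order was Ago12_KO, Drosha_KO, Dgcr8_KO and WT, Dicer_KO has no place because its limit of 36.3 CPM is above WT, and the wide spread of Drosha_KO (114 ± 126 CPM, SD, n = 2) overlapped both of its neighbours.

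Dgcr8_KO and Drosha_KO each lack a subunit of the Microprocessor, and their direct comparison called none of the 5 members, where 13.9% of entries were called (5.61% higher and 8.32% lower). The fold changes of Dgcr8_KO over Drosha_KO were 0.85 (SE 0.46, edgeR adjusted p = 0.260) for miR-142a-5p, 0.85 (SE 0.49, edgeR adjusted p = 0.289) for miR-142a-3p, -1.06 (SE 0.84, edgeR adjusted p = 0.461) for miR-192-5p, -0.23 (SE 0.62, edgeR adjusted p = 0.869) for miR-194-5p and -0.58 (SE 0.70, edgeR adjusted p = 0.654) for miR-375-3p. edgeR gave 0 of them an unadjusted p under 0.05, and DESeq2 with its own size factors called 2, the arms of miR-142a. DESeq2 put the other 3 at positive values, 0.42 for miR-192-5p, 1.24 for miR-194-5p and 0.93 for miR-375-3p. With 63 to 123 counts of miR-142a and at most 8 of any other member per Drosha_KO library, these standard errors leave room for differences of over 2-fold. Without Drosha_KO replicate 1 miR-142a-5p was called higher in Dgcr8_KO (1.48, edgeR adjusted p = 0.0475).

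Dicer_KO and Drosha_KO lack different cuts of the same pathway and had nearly the same library totals. The rRNA-like entries, listed in part for their dominance in Dicer_KO, held 47.1 to 48.6% of Dicer_KO counts and 4.29 to 4.54% of Drosha_KO counts. Fewer Dicer_KO counts were thus left for the other entries. Here 1 member was higher and 3 were lower in Dicer_KO, where 43.9% of entries were called (13.5% higher and 30.4% lower). With only these 2 groups fitted, miR-142a-5p alone passed the filter. The other 4 members were thus tested here only through their counts in other groups. miR-142a-5p fell to 104 ± 71.7 CPM in Dicer_KO, against 2150 ± 1076 CPM in Drosha_KO (SD, n = 2), a log2 difference of -4.32 (SE 0.63, edgeR adjusted p = 0.000205). miR-192-5p rose to 374 ± 190 CPM in Dicer_KO, against 50.4 ± 36.1 CPM in Drosha_KO (2.91, SE 0.69, edgeR adjusted p = 0.00584). miR-194-5p, without a count in Dicer_KO, was at least 3.45-fold lower than in Drosha_KO (edgeR adjusted p = 0.0171), a bound that would be smaller with the rRNA-like entries out of the totals. miR-375-3p, also without a count in Dicer_KO, was called lower (edgeR adjusted p = 0.0273), but Drosha_KO replicate 2, at 24.8 CPM, was under the Dicer_KO limit of 36.3 CPM. miR-142a-3p was at -1.37 (SE 0.73, edgeR adjusted p = 0.149). Only the miR-142a-5p call remained without Dicer_KO replicate 1, where miR-192-5p had edgeR adjusted p = 0.0603, miR-194-5p 0.0820 and miR-375-3p 0.112, and without Dicer_KO replicate 2 miR-194-5p and miR-375-3p had 0.0628 and 0.0913. The miR-375-3p call was also lost without Drosha_KO replicate 1 (edgeR adjusted p = 0.241) and with the rRNA-like entries out of the totals (edgeR adjusted p = 0.0683). DESeq2 with its own size factors called neither miR-194-5p (adjusted p = 0.0631) nor miR-375-3p (adjusted p = 0.0837).

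Other miRNAs of the same lineages were read from lists that include the members. Of 19 strands listed for blood, 17 had a count and 9 passed the filter, the arms of miR-142a among them. Against WT, 2 were higher and 1 lower in Dgcr8_KO, 3 higher and 2 lower in Drosha_KO, 1 higher and 4 lower in Dicer_KO, and 5 higher and 1 lower in Ago12_KO. That is 33.3% of the 9 called in Dgcr8_KO, where 73.4% of all entries were, 55.6% in Drosha_KO against 57.8%, 55.6% in Dicer_KO against 55.9%, and 66.7% in Ago12_KO against 54.5%. Their median log2 fold change was -0.52, 1.07, -0.074 and 1.75 in the 4 mutants, against -0.41, -0.87, -2.78 and -0.016 for all entries. The Dicer_KO median was the value of miR-142a-3p itself, and it was the same with miR-155-5p, at 0 counts, set at its bound. The 2 strands called higher in Dgcr8_KO were the arms of miR-142a, so no other listed blood strand was called higher there. miR-150-5p, a strand of mature lymphocytes, rose in Ago12_KO to 3602 ± 2138 CPM, against 1066 ± 17.0 CPM in WT (SD, n = 2 each, log2 fold change 1.75, edgeR adjusted p = 0.00308). miR-146a-5p, which dampens innate immune signalling, rose in Ago12_KO to 255 ± 126 CPM, against 3.57 ± 2.14 CPM in WT (6.02, edgeR adjusted p = 1.88e-05), in Drosha_KO (4.5, edgeR adjusted p = 0.00283, on 6 and 1 counts) and, as the 1 listed blood strand to do so, in Dicer_KO (5.54, edgeR adjusted p = 0.000133, on 9 and 6 counts). In the WT libraries miR-146a-5p had 5.09 and 2.06 CPM, under the filter's 38.5 CPM. miR-150-3p, also called higher in Ago12_KO, had 2.97 and 10.3 CPM in WT. These strands passed the filter only through mutant libraries, so entering the test already required a higher level in a mutant. miR-155-5p, induced in activated lymphocytes and macrophages, fell in Ago12_KO (-1.95, edgeR adjusted p = 0.0150).

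The listed strands of granulocytes and some of those of red cells, singled out after their values were seen, were at or near 0, unlike miR-150-5p, miR-342-3p and miR-486a-5p. miR-223-3p, of granulocytes, had 1 count in all 10 libraries together, in Dgcr8_KO replicate 1, and miR-223-5p had none. Of the red cell strands, miR-451a had 2 and 0 counts in Dgcr8_KO, 4 and 5 in WT and none elsewhere, and miR-144-5p had 4 counts in WT replicate 1 alone. The listed blood strands other than miR-142a summed to 803 to 943 CPM in Dgcr8_KO, 2134 to 2784 CPM in Drosha_KO, 774 to 934 CPM in Dicer_KO, 2937 to 6303 CPM in Ago12_KO and 1501 to 1584 CPM in WT. Much of each sum was miR-150-5p. Without it the sums were 335 and 330.4 CPM in Dgcr8_KO, 253 and 198 CPM in Drosha_KO, 398 and 640.4 CPM in Dicer_KO, 847 and 1190.02 CPM in Ago12_KO, and 506 and 447 CPM in WT. The Drosha_KO sums were thus above WT with miR-150-5p and below WT without it, and those of Ago12_KO were above WT and those of Dgcr8_KO below WT both ways. miR-486a-5p and miR-486b-5p, near-identical strands with almost equal counts, could share reads and are uncertain.

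Of 19 strands listed for liver, gut and pancreas, 12 had no count in any library, and the 3 that passed the filter were the members miR-192-5p, miR-194-5p and miR-375-3p. The liver strand miR-122-5p had 1 count in all, in Dgcr8_KO replicate 2, and the acinar strands miR-216a-5p and miR-217-5p had none. The list without the members summed to at most 30.5 CPM in Ago12_KO and 14 CPM in WT. A list of 8 fibroblast or feeder strands, of which 3 had no count anywhere, summed to 2907 to 3026 CPM in Dgcr8_KO, 3923 to 6227 CPM in Drosha_KO, 155 to 400.3 CPM in Dicer_KO, 1065 to 2114 CPM in Ago12_KO and 2532 to 3443 CPM in WT. Few strands of this list carried the sums. Per library, 3 had a count in Dgcr8_KO, 2 in Drosha_KO, 2 to 3 in Dicer_KO and 4 to 5 in Ago12_KO and in WT. Against both WT libraries its sum was below in Ago12_KO, where 4 members were called higher, and in Dicer_KO, where 0 were. In Drosha_KO, where 2 members were called higher, the sum was above both WT libraries, and in Dgcr8_KO, where 3 were, it lay between them. Its part in the results was not tested.

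The tested entries whose profile over the 10 libraries was most like that of each member were found by the root mean square difference of log2 CPM, each profile centred on its mean. For miR-142a-5p the closest was miR-375-3p itself (0.82, against a median of 2.50 for all entries), then miR-203-3p (0.99) and miR-129-5p (1.06). For miR-142a-3p the closest was miR-30d-3p (0.63, against a median of 2.29), which had 327 ± 11.9 CPM in Dgcr8_KO, 113 ± 54.7 in Drosha_KO, 51.1 ± 41.0 in Dicer_KO, 1041 ± 99.8 in Ago12_KO and 97.8 ± 5.11 in WT (SD, n = 2 each). The arms of miR-142a differed from each other by 1.25, and miR-192-5p from miR-194-5p by 3.83, above the median of 3.27 between miR-192-5p and all entries. miR-192-5p was closest to the passenger strands miR-27a-5p (0.92), miR-130b-5p (1.07) and miR-27b-5p (1.10), and miR-194-5p to let-7i-5p (0.50), miR-26a-5p (0.60) and miR-130a-3p (0.62). miR-27a-5p had 1.22 ± 1.73 CPM in Dgcr8_KO, no count in Drosha_KO, 59.9 ± 9.17 CPM in Dicer_KO, 459 ± 34.4 CPM in Ago12_KO and 62.1 ± 11.1 CPM in WT (SD, n = 2 each).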

How the data were processed

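Per the labels' protocols, 1 ug of total RNA went into each library, prepared with a TruSeq small RNA kit. The authors deposited raw read counts per mature miRNA, whole numbers with no normalization. The submitters' processing notes name Bowtie and mm10. How reads were counted, the miRBase release and the handling of multiply mapped reads were not given in the sources used here. Counts were tested with edgeR 4.0.16 (R 4.3.3) in 1 fit of all groups (residual df 5), with column totals as library sizes, after filterByExpr (minimum count 10, minimum total 15, 38.5 CPM). TMM and size factors, which assume mostly stable miRNAs, were alternatives. An SE is the fold change divided by the root of its F. Arm balance used limma 3.58.1 (pseudocount 0.5), and profiles used log2 CPM with a prior count of 2. Intervals (95%, scipy 1.17.1) and the limit of 3 counts cover counting error only. Other alternatives were DESeq2 1.42.0, other filters, a replicate block and leaving out each library. The scripts were tested on simulated data. Named miRNAs were the members, their opposite arms, cluster and seed neighbours, listed blood and endoderm strands that passed the filter, and the 3 entries closest to each member. Listed strands below the filter (miR-223, miR-451a, miR-144-5p, miR-122-5p, miR-216a-5p and miR-217-5p) were chosen after their values were seen. Members and lists were chosen with earlier results of these data known. Positions are from RefSeq and GENCODE M21 (GRCm38).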

Additional observations from a re-analysis of the deposited data

How the results depend on the processing

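Of 595 fold changes of the members under alternatives, 513 kept direction and side of the threshold, 32 lost a call, 24 gained one and 26 reversed; the cause was not tested. Among those that kept both under all 20 alternatives were miR-192-5p in Dgcr8_KO and Drosha_KO and miR-142a-3p in Ago12_KO against WT. Scaling mattered most. Without scaling, the reversed fold changes against WT were -0.54 (miR-142a-3p) and -0.93 (miR-375-3p) in Dgcr8_KO, -4.48 (miR-142a-3p), -3.44 (miR-142a-5p) and -3.42 (miR-375-3p) in Drosha_KO and -0.27 (miR-192-5p) in Ago12_KO, and Dgcr8_KO against Drosha_KO gave 2.02 (miR-192-5p), 2.90 (miR-194-5p) and 2.50 (miR-375-3p). DESeq2 size factors in edgeR gave -1.12, -0.083 and -0.12 for miR-142a-3p, miR-142a-5p and miR-375-3p in Drosha_KO against WT, and 0.42, 1.24 and 0.91 for miR-192-5p, miR-194-5p and miR-375-3p in Dgcr8_KO against Drosha_KO. DESeq2 itself gave -1.12, -0.085 and -0.13, and 0.42, 1.24 and 0.93, for the same miRNAs. TMM put miR-194-5p at 0.081 in Dgcr8_KO against Drosha_KO. miR-142a-3p in Dicer_KO against WT was 0.86 with totals without the rRNA-like entries, 0.065 without Dicer_KO replicate 1 and 0.62 without WT replicate 1. Over the fits without 1 library, it ran from -0.53 to 0.62. Without Drosha_KO replicate 1, miR-375-3p was 1.60 in Dgcr8_KO against Drosha_KO, and those fits ran from -1.42 to 1.60.

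Members called against WT, 4 for Dgcr8_KO, 3 for Drosha_KO, 3 for Dicer_KO and 5 for Ago12_KO, became 2, 5, 5 and 2 without scaling, and 1 in Dicer_KO with totals without the rRNA-like entries. In Dgcr8_KO against Drosha_KO 0 became 2 with DESeq2 size factors, 5 without scaling and 2 with DESeq2. In Dicer_KO against Drosha_KO 4 became 2 with DESeq2 size factors, 1 with only these groups fitted, where the other 4 members were not tested, and 2 with DESeq2. Entries called higher (lower) in Dgcr8_KO against WT, 156 (197), became 51 (329) without scaling, and 259 were higher without a filter. In Drosha_KO, 126 (152) became 83 (302) with DESeq2 size factors, 5 (399) without scaling and 75 (326) with DESeq2. In Dicer_KO, 64 (205) became 6 (429) without scaling. In Ago12_KO, 138 (124) became 74 (232), 16 (336) and 62 (233) under those 3 settings. In Dgcr8_KO against Drosha_KO, 27 (40) became 156 (13), 348 (5) and 154 (14). In Dicer_KO against Drosha_KO, 65 (146) became 100 (90) with DESeq2 size factors, 34 (78) with only these groups and 108 (82) with DESeq2. The median of all entries, -0.41, -0.87, -2.78 and -0.016 against WT, moved to -1.32, -3.22, -3.76 and -1.33 with DESeq2 size factors.

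Leaving out 1 library at a time gave 3 to 5, 2 to 3, 2 to 3 and 4 to 5 members called in Dgcr8_KO, Drosha_KO, Dicer_KO and Ago12_KO against WT, 0 to 1 in Dgcr8_KO against Drosha_KO and 1 to 4 in Dicer_KO against Drosha_KO. Entries called higher in Dgcr8_KO against Drosha_KO ran from 11 to 50, and lower from 18 to 48. Arm balance in Dicer_KO ran from -2.91 to -1.33. A group left with 1 library was assumed to vary like the others. With the replicate number as a block, the miR-142a-3p fold change in Drosha_KO became a call (1.34, edgeR adjusted p = 0.0456), and no other member's call changed. Equal numbers do not pair the libraries: deviations of same-numbered libraries correlated at -0.065 to 0.14 across groups. Depth limits the Drosha_KO and Dicer_KO values most, where the members other than miR-142a had 0 to 23 counts per library.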
